A study of Homo sapiens with 4 samples.

Results

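The genes described here code for the subunits of the 5 complexes of oxidative phosphorylation, measured by RNA sequencing in NT2 cells. NT2 (NTERA-2) is an established human embryonal carcinoma line. This set of genes was chosen with earlier results of these data known. Members were taken by gene symbol: NADH dehydrogenase subunits (NDUFA, NDUFB, NDUFC, NDUFS and NDUFV genes), SDHA to SDHD, UQCR genes and CYC1, most COX4 to COX8 genes, ATP5F, ATP5M and ATP5P genes, and the protein-coding genes of mitochondrial DNA. This took 159 of 62696 genes, of which 13 lie in mitochondrial DNA and 146 in the nucleus. Of the nuclear symbols, 63 are pseudogene symbols, none of which reached the level needed for comparison. The study set 1 library labelled empty vector, given as wild type and called the control here, against 3 libraries labelled HYDIN2 knockdown. All 4 came from cells grown in the same serum-containing medium. The labels do not say how HYDIN2 was knocked down, or whether the replicates were separate cultures, so the spread between them may be technical.

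Complexes I to IV form the respiratory chain: they pass electrons from NADH and succinate to oxygen, and complexes I, III and IV pump protons across the inner mitochondrial membrane. Complex V, the ATP synthase, lets the protons flow back through a ring of c subunits and makes ATP in its F1 head. Complex II is built from nuclear genes only, whereas the others combine nuclear subunits with a few encoded in mitochondrial DNA, which is transcribed as long RNAs that are cut into the separate messengers. Many nuclear subunit genes are known targets of the transcription factors NRF1, GABP and YY1, and the coactivators PPARGC1A and PPARGC1B act with such factors.

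Promoter sequence was available from RefSeq (GRCh38.p14, 250 bases before to 50 bases after the start) for 66 of the 83 nuclear members without a pseudogene symbol, and was searched on both strands for fixed letters. The NRF1 letters (GCGC, any base, then TGCGC) were in 17 of the 66 promoters (25.8%), against 5.78% of 35116 promoters of the same length and 9.16% of the 16938 that belong to genes with a comparable level here. The GABP letters CCGGAAG were in 19 (28.8%, against 10.3% and 15.6%). The YY1 letters AANATGGC were in 22 (33.3%, against 6.58% and 8.54%). The ESRRA letters TCAAGGTCA were in 1 (1.52%, against 0.353% and 0.189%), and TATAAA was in 7 (10.6%, against 11.5% and 6.76%). The NRF1 letters can overlap their own match on the other strand, which was counted once per promoter. The other motifs share no such overlap in the stretches printed here. A match is a description of the letters and not a binding site. Shown are 4 members that were lower in the libraries labelled knockdown and 1 that was higher (NDUFA9). They were chosen after the matches were seen and do not stand for the lower members. Promoters were available for 8 members called 2-fold lower by the rule given further on. Of these 8, only 2 had NRF1 letters, 1 GABP letters and 1 YY1 letters. Each stretch holds 130 bases before and 30 from the start, 5′ to 3′ on the strand of the gene. Capitals mark the NRF1, GABP and YY1 letters. COX6B1 (chr19:35648193-35648352, plus strand) has the GABP letters read on the other strand. NDUFA8 (chr9:122159750-122159909, minus strand) and UQCRFS1 (chr19:29213122-29213281, minus strand) have NRF1 letters, overlapping ones in NDUFA8. SDHB (chr1:17054003-17054162, minus strand) has GABP and then YY1 letters, and NDUFA9 (chr12:4648984-4649143, plus strand) has NRF1 and then YY1 letters.
COX6B1: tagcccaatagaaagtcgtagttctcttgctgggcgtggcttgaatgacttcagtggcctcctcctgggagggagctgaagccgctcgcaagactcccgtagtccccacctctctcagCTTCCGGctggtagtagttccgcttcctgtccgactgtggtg
NDUFA8: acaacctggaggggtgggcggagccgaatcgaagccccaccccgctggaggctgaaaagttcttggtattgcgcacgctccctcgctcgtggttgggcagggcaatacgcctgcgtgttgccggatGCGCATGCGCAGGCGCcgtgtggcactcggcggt
SDHB: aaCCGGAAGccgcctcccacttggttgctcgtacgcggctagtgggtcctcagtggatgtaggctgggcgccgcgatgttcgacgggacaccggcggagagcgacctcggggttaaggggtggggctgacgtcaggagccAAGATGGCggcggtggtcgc
UQCRFS1: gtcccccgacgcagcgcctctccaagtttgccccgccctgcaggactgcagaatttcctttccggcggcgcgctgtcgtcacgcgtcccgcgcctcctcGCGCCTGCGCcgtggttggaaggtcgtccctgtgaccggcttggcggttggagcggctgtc
NDUFA9: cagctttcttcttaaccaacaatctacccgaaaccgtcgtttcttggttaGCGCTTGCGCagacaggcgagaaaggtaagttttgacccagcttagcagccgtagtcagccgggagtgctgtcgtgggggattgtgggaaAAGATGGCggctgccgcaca

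The size of the difference between libraries was also described with and without these letters, and was not tested. The median log2 difference between the labelled knockdown libraries and the control was -0.72 over 16 compared members with NRF1 letters and -0.65 over 44 without. It was -0.71 with GABP letters (19 members) and -0.55 without (41), and -0.60 with YY1 letters (21) and -0.72 without (39). With trends on length and GC content removed, as described further on, the medians with and without were -0.39 and -0.41 for NRF1, -0.39 and -0.42 for GABP and -0.38 and -0.46 for YY1, so the order turned for NRF1 and GABP. NDUFA9, the member shown above that was higher, carries the same YY1 letters at the same distance from its start as SDHB, which was lower.

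HYDIN2, the gene named as the target, had 12 counts in the control and 150, 112 and 11 in the libraries labelled knockdown 1, 2 and 3. As CPM, counts scaled to a common library size with the trimmed mean factors of edgeR, this was 0.5 CPM against 2.41, 1.88 and 0.352 CPM. The target was thus not lower in 2 of the 3 libraries labelled knockdown. In knockdown 3 its 11 counts lay close to the 12 of the control, too few to show a lower level. The count columns also carry other names (LacZ in the control table and GKAP_KIF27 sets in the others). Libraries are therefore named by their labels only. Depth was 25181737 counts in the control and 62904698, 61627449 and 28552070 in knockdown 1, 2 and 3. The cells matched their labelled type: all 11 embryonal carcinoma markers were at or above 1 CPM in every library (summed level 8168 to 9981 CPM). Single markers differed between libraries. DNMT3B (795 CPM against 340, 350 and 349 CPM), L1TD1 (472 CPM against 241, 239 and 227 CPM), DPPA4, POU5F1 and TDGF1 were below the control in all 3. PODXL (1838 CPM against 2566, 2461 and 3866 CPM) and SALL4 were above it in all 3, and the others varied. Of 10 neural markers, 4 to 7 reached 1 CPM, with a summed level of 191 CPM in the control and 322 to 368 CPM in the others. NES gave most of that sum. PAX6 was at 0 CPM in the control and at 15.4, 13.1 and 2.95 CPM in knockdown 1, 2 and 3. NES (167 CPM against 291, 274 and 270 CPM), MAP2 (9.16 CPM against 24.0, 22.8 and 34.5 CPM) and TUBB3 were also above the control in all 3. DCX, ELAVL3 and STMN2 were higher than the control in knockdown 1 and 2 but not all in knockdown 3. SOX1 stayed under 1 CPM in every library. NEUROD1 and NEUROG2 were near or at 0 in every library. Of 8 fibroblast or mesenchymal markers, 6 or 7 reached 1 CPM (434 to 657 CPM summed, DCN at 0 in some libraries). Their part in the results was not tested. In bulk RNA, fewer cells of a type and less RNA per cell cannot be told apart.

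With a single control library there is no replicate check on the control side, so a rule of size was used in place of a p-value. A gene was compared with the control where its mean level over the groups was at least 1 CPM, and called where all 3 libraries labelled knockdown were 2-fold or more above it, or all 3 were 2-fold or more below it, on log2 CPM with a prior count of 2. This kept 15880 genes, among them 88 members: 13 mitochondrial and 75 nuclear. The 8 other nuclear members that are not pseudogenes were too low. NDUFA7 had 9 counts in the control and 48, 56 and 35 in knockdown 1, 2 and 3, and NDUFB8 had 23, 50, 60 and 18. In GENCODE 29, another gene on the same strand shares 32.3% of the exon bases of NDUFA7 and 33.8% of NDUFB8. The share is 30.9% in COX6B2 and 0% in COX7A1. Whether shared bases lowered the counts was not tested. COX6B2, the testis form of COX6B, had 10, 56, 42 and 12 counts and COX7A1, the heart and muscle form of COX7A, had 6, 4, 7 and 14, with counting intervals of every ratio spanning 1. ATP5MGL had at most 4 counts, and COX6A2, COX7B2 and COX8C, which are forms known from muscle, testis or other tissues, had 0 in every library. The 63 pseudogene symbols summed to 111, 178, 158 and 178 counts in all, and 29 of them were at 0 in every library.

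Nuclear respiratory chain genes were lower in the libraries labelled knockdown, in every complex, while mitochondrial genes were not lower as a group. Of the 75 nuclear members compared, 61 were below the control in all 3 libraries and 5 were above it in all 3. The same was true of 34.2% (lower) and 30.1% (higher) of all genes compared. The median log2 difference of the nuclear members was -0.51 in knockdown 1, -0.33 in knockdown 2 and -1.11 in knockdown 3, where all genes had medians of 0.03, 0.05 and -0.15. By the 2-fold rule 9 members were called lower and 0 higher, all 9 of them nuclear, against 2.72% lower and 3.65% higher among all genes compared. At 1.5-fold, 23 members were called lower and 3 higher, against 9.61% and 10% of all genes. The spread over complexes and libraries is shown in the plot of differences by complex.

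**Figure D1:**
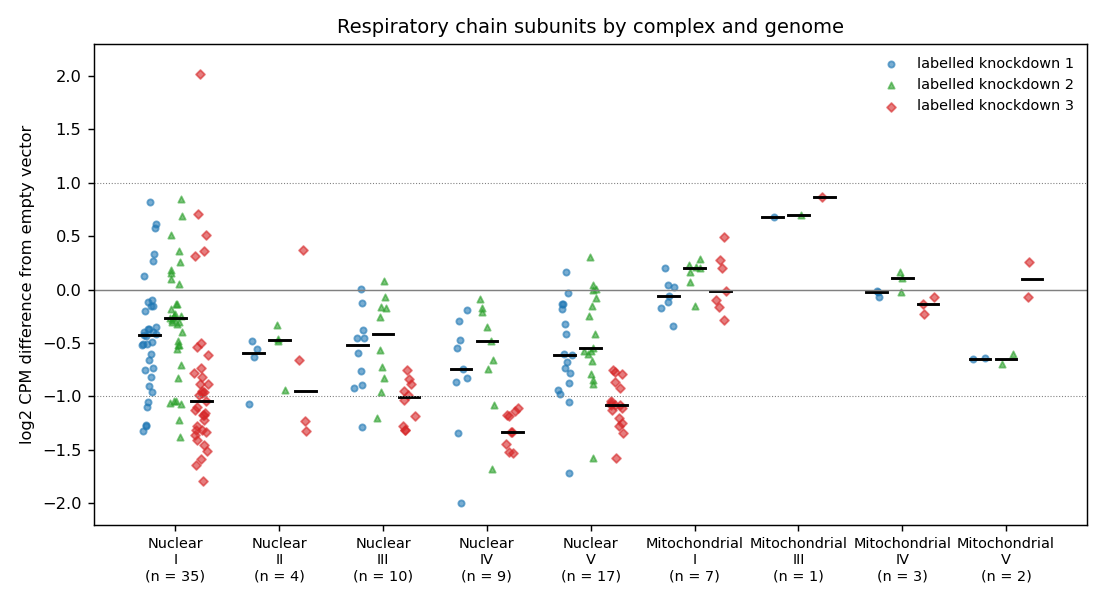
Log2 difference from the control (y axis, log2 CPM) for each compared member, by complex and genome (x axis), with 1 point per gene and library labelled knockdown and a bar at each median. Dotted lines mark 2-fold. Nuclear points lie mostly below 0 in every complex and lowest in knockdown 3, while mitochondrial points lie near 0 apart from MT-CYB (complex III, above) and complex V in knockdown 1 and 2 (below).

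edgeR's quasi-likelihood test, in which the only measured spread is that between the 3 libraries labelled knockdown, called 0 of 26029 genes after Benjamini-Hochberg adjustment, and so 0 of the 100 members in the fit. At an unadjusted p under 0.05 it had 26 members (24 lower, 2 higher) and 11.6% of all genes. DESeq2 called 253 genes (1.53% of 16512), of which 2 were members, COX6B1 and ATP5MC1, both lower. These tests compare 1 library with 3 others rather than the conditions.

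Complex I had 35 nuclear members compared, with medians of -0.42, -0.27 and -1.04 in knockdown 1, 2 and 3. Of these, 26 were lower in all 3 libraries and 5 were higher in all 3, and 5 were called lower at 2-fold. All 5 are accessory subunits, which surround the catalytic core. NDUFS5, a small subunit with a twin CX9C fold, had 87.1 CPM in the control and 34.7, 42.4 and 29 CPM in knockdown 1, 2 and 3 (35.4 ± 6.70, SD, n = 3). NDUFA8, of the same fold, had 23.0 CPM against 11.1, 9.88 and 7.36 CPM. In both genes the 3 labelled knockdown values lay close together and far under the control value. NDUFB3 had 42.2 CPM against 17.5, 20.2 and 15.8 CPM, and NDUFB6 36.5 CPM against 15.1, 17.4 and 14.1 CPM. NDUFC1 had 38.2 CPM against 17.8, 18.6 and 11 CPM. NDUFB3 and NDUFB6 belong to the distal membrane arm that pumps protons, and NDUFC1 also sits in the membrane arm. At 1.5-fold, NDUFA2, NDUFB4 and NDUFB10 were also called lower.

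The 7 core subunits of complex I encoded in the nucleus, which carry the flavin and the iron-sulphur clusters or line their path, were described beside the 28 accessory ones, without a test of the difference. Their medians were -0.12, 0.10 and -0.82 in knockdown 1, 2 and 3, against -0.51, -0.31 and -1.15 for the accessory subunits, whose transcripts are shorter. With trends removed these were -0.02, 0.04 and -0.65 against -0.33, -0.21 and -0.74. NDUFS1, the largest iron-sulphur subunit, was above the control in all 3 libraries (211 CPM against 314, 301 and 271 CPM). NDUFV1, which binds NADH and the flavin, had 88.4 CPM against 82.6, 94.9 and 39.6 CPM, so that knockdown 3 alone lay far from the control. NDUFS3, a core subunit of the peripheral arm, was lower in all 3 libraries, with log2 differences of -0.36, -0.30 and -0.95.

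NDUFA9, an accessory subunit next to the quinone site, was above the control in all 3 libraries before trends on length were removed. It had 27.7 CPM in the control and 49.0, 50.1 and 45.3 CPM in knockdown 1, 2 and 3 (48.1 ± 2.50, SD, n = 3), log2 differences of 0.82, 0.85 and 0.71. It was called higher at 1.5-fold, and the groups do not overlap, but with trends removed its differences were 0.29, 0.37 and -0.06 and the call was lost. NDUFV2, a core iron-sulphur subunit, was called higher too, but from 17 counts in the control against 69, 70 and 94. The counting interval of its ratio ran from 0.744 to 4.10 in knockdown 1, from 0.802 to 4.39 in knockdown 2 and from 2.11 to 11.1 in knockdown 3. Per kilobase of its longest transcript it had the lowest level of all nuclear members compared (0.752 CPM per kilobase in the control, where the nuclear median was 35.3). NDUFA11 and NDUFA13, both membrane arm subunits, were above the control in all 3 libraries by less than 1.5-fold, and were also among the 4 lowest nuclear members per kilobase (2.04 and 1.64 CPM per kilobase). 4 of the 5 higher nuclear members are thus among the 5 with the lowest level per kilobase. NDUFS1 is the other. Other genes on the same strand share 28.4% of the exon bases of NDUFV2 and 21.0% of NDUFA13. The share is 10.6% in NDUFA9, 9.65% in NDUFA11 and 3.19% in NDUFS1. It is 0% in SDHA, also among the 5 lowest, and 34.5% in COX8A, at 235 CPM per kilobase in the control. Whether shared bases lowered these counts was not tested.

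Complex II, succinate dehydrogenase, has 4 subunits, and 3 of them were lower in all 3 libraries (medians -0.59, -0.47 and -0.95). SDHB, the iron-sulphur subunit, had 63.7 CPM in the control and 30.3, 33.2 and 27.1 CPM in knockdown 1, 2 and 3, and was called lower at 1.5-fold. SDHC and SDHD, which anchor the complex in the membrane, had 222 CPM against 151, 161 and 140 CPM, and 89.7 CPM against 64.2, 71.2 and 35.9 CPM. SDHA, the flavin subunit, had 4.83 CPM against 3.10, 3.45 and 6.27 CPM, so that the groups overlap. Its level per kilobase in the control (1.61 CPM) was the second lowest among nuclear members.

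Complex III had 10 nuclear members compared, with 9 lower in all 3 libraries (medians -0.52, -0.41 and -1.01). UQCRFS1, the Rieske iron-sulphur protein that hands electrons to cytochrome c1, had 148 CPM in the control and 60.8, 64.3 and 59.7 CPM in knockdown 1, 2 and 3 (61.6 ± 2.40, SD, n = 3). It was the 1 member of complex III called at 2-fold, and its 3 labelled knockdown values were nearly equal. UQCRH, the hinge protein, had 450 CPM against 243, 273 and 198 CPM. UQCRHL, a near-identical copy of UQCRH whose reads may be split from it by the authors' counting, had 24.2 CPM against 12.8, 12.4 and 9.67 CPM. UQCR11, a small subunit, had 27.0 CPM against 15.9, 15.2 and 15.1 CPM, and was called at 1.5-fold like the UQCRH pair. The core proteins UQCRC1 and UQCRC2 differed little outside knockdown 3: UQCRC2 had 150 CPM against 151, 159 and 89.4 CPM. CYC1, cytochrome c1, had 150 CPM against 115, 133 and 61.7 CPM.

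Complex IV, cytochrome c oxidase, had medians of -0.75, -0.48 and -1.33, the lowest of the 5 complexes in knockdown 1 and 3, and all 9 nuclear members compared were lower in all 3 libraries. The difference between complexes was not tested. COX6B1, which joins the monomers of the complex on the intermembrane side, had 236 CPM in the control and 59.2, 73.7 and 93.9 CPM in knockdown 1, 2 and 3 (75.6 ± 17.4, SD, n = 3). Its log2 differences of -2.00, -1.68 and -1.33 had the lowest mean of all members compared, and knockdown 3 was here the nearest to the control and not the farthest. COX5A, a subunit on the matrix side, had 193 CPM against 76.1, 91.5 and 66.9 CPM and was also called at 2-fold. COX7A2 had 136 CPM against 74.7, 81.7 and 47.4 CPM, and COX8A 119 CPM against 67.1, 75.5 and 52.4 CPM. Both are small membrane subunits and were called lower at 1.5-fold. COX5B, COX6A1, COX6C, COX7B and COX7C were lower in all 3 libraries without reaching 1.5-fold in each. Summed over its nuclear members, complex IV had 952 CPM in the control and 466, 539 and 371 CPM in the others. NDUFA4 is named as a complex I gene but is known as a subunit of complex IV. It had 554 CPM against 328, 386 and 259 CPM, and counting it in complex IV gave that complex medians of -0.75, -0.50 and -1.26.

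Complex V had 17 nuclear members compared, 14 of them lower in all 3 libraries (medians -0.61, -0.54 and -1.08). The 3 genes for the c subunit of the rotor ring, which encode the same mature protein with different import sequences, were each called lower at 1.5-fold. ATP5MC1 had 74.4 CPM in the control and 22.6, 24.9 and 29.3 CPM in knockdown 1, 2 and 3 (25.6 ± 3.4, SD, n = 3), and was called at 2-fold. ATP5MC2 had 387 CPM against 233, 255 and 183 CPM, and ATP5MC3 233 CPM against 119, 130 and 112 CPM. Together the ring genes had medians of -0.98, -0.85 and -1.08. The 5 F1 head genes had medians of -0.18, -0.08 and -1.04, so that knockdown 1 and 2 lay near the control and knockdown 3 did not. ATP5F1B, the catalytic beta subunit and the most abundant nuclear member in the control in CPM, had 987 CPM against 869, 932 and 466 CPM. ATP5F1D, the delta subunit of the central stalk, differed from the rest of the head, with 85.2 CPM against 46.4, 49.1 and 35.9 CPM. ATP5PD of the peripheral stalk, which holds the head still, had 120 CPM against 58.1, 64.9 and 40.2 CPM. ATP5ME, a small membrane subunit, had 17.1 CPM against 11.3, 10.8 and 7.91 CPM. ATP5F1D, ATP5PD and ATP5ME were called lower at 1.5-fold.

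**Figure D2:**
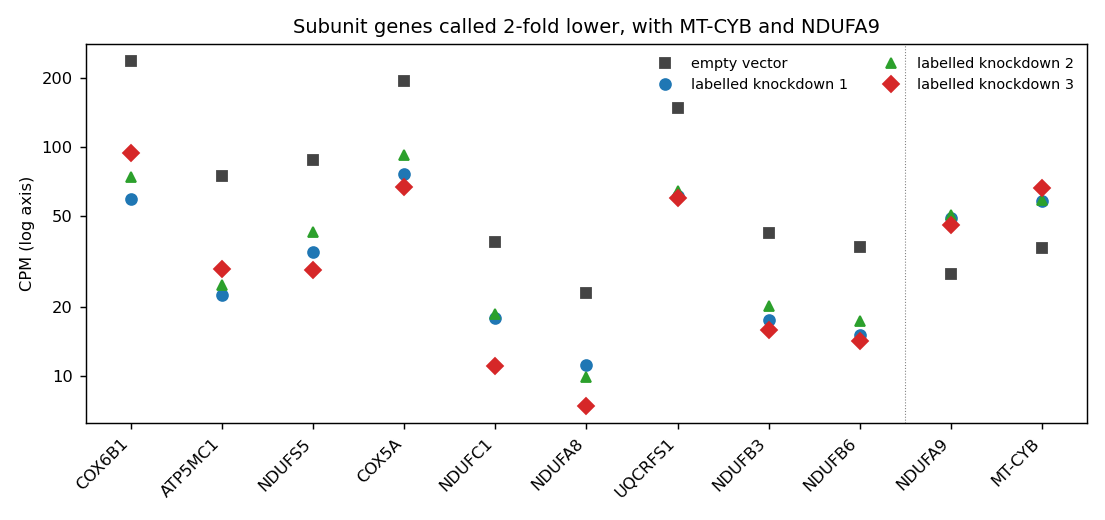
Level in CPM (y axis, log scale) of the 9 nuclear members called lower at 2-fold and of NDUFA9 and MT-CYB, in the control and the 3 libraries labelled knockdown. Each point is 1 library. The 9 genes lie below the empty vector value in all 3 libraries, while NDUFA9 and MT-CYB lie above it in all 3.

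Knockdown 3 stood apart from knockdown 1 and 2, over all genes compared as well as in the nuclear members. From knockdown 1 to knockdown 3, 8% of the nuclear members and 21.6% of all genes differed by 2-fold or more. From knockdown 2 to knockdown 3 the shares were 14.7% and 22.9%. Against the control, 47 of 75 differed by 2-fold or more in knockdown 3 (62.7%, against 27.2% of all genes). The number was 11 in knockdown 1 (14.7%, against 18.8% of all genes) and 10 in knockdown 2 (13.3%, against 17.1%), so there the share was below that of all genes. Between knockdown 1 and 2, 0 of the 75 differed by 2-fold, where 0.302% of all genes did. The median from knockdown 1 to knockdown 3 was -0.51 for the nuclear members and -0.17 for all genes, so the spread among the libraries with the same label was as large as the median difference between knockdown 1 and the control. A gene is called only where all 3 libraries lie beyond the fold. COX6B1 and ATP5MC1 were lower in knockdown 1 and 2 than in knockdown 3, and UQCRFS1 was about level in the 3, unlike the F1 head, NDUFV1 or CYC1.

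The 13 mitochondrial genes had medians of -0.06, 0.16 and -0.07 in knockdown 1, 2 and 3. Of them, 3 were higher in all 3 libraries and 3 lower in all 3 (23.1% each). Of all genes compared, 30.1% were higher and 34.2% lower in all 3. None of the 13 was called at 2-fold. MT-CYB, cytochrome b of complex III (chrM:14747-15887, plus strand), had 36.2 CPM in the control and 58.2, 58.8 and 66.1 CPM in the others (61.0 ± 4.43, SD, n = 3). It was the 1 mitochondrial gene called at 1.5-fold, with ratios of 1.61 (95% counting interval 1.44 to 1.79), 1.62 (1.46 to 1.81) and 1.82 (1.63 to 2.05). MT-ND5, a proton-pumping subunit of complex I and the neighbour of MT-CYB on the same strand apart from the opposite-strand MT-ND6, had 91.8 CPM against 106, 112 and 129 CPM. MT-ND6, the 1 protein gene on the minus strand, had 44.2 CPM against 44.8, 51.8 and 53.4 CPM. These 3 neighbours at the end of the map were the 3 that were higher in all 3 libraries, MT-ND6 by a log2 difference of only 0.02 in knockdown 1. With trends on length and GC content removed, as described further on, 12 of the 13 mitochondrial genes had a mean above 0, where 6 had one before. The trends were fitted over all compared genes, and whether they apply to mitochondrial transcripts was not tested.

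MT-ATP6 and MT-ATP8, the mitochondrial subunits of complex V, which lie in 1 shared messenger and overlap by 46 bases, differed from the rest. MT-ATP6 had 130 CPM in the control and 83.3, 86.1 and 156 CPM in knockdown 1, 2 and 3. MT-ATP8 had 19.7 CPM against 12.6, 12.1 and 18.8 CPM. Both were lower in knockdown 1 and 2 and near or above the control in knockdown 3. Their count ratio, MT-ATP8 to MT-ATP6, was 0.151 in the control and 0.151, 0.141 and 0.121 in the others. MT-ND4L and MT-ND4, which also share a messenger and overlap by 7 bases, had ratios of 0.0755 against 0.0704, 0.0748 and 0.0693. The ratio of the first pair thus ranged from 0.121 to 0.151 while the level of MT-ATP6 ranged from 83.3 to 156 CPM.

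The other mitochondrial genes stayed near the control. MT-CO1 had 180 CPM in the control and 177, 193 and 171 CPM in the others, and MT-CO3 had 128 CPM against 121, 126 and 116 CPM. MT-CO2, which receives electrons from cytochrome c, had 259 CPM against 256, 290 and 221 CPM. It had the highest level per kilobase of the 13 in every library (379 CPM per kilobase in the control). MT-ND4 had 231 CPM against 238, 267 and 206 CPM. MT-ND4L had 17.4 CPM in the control and log2 differences of -0.06, 0.20 and -0.28. These membrane subunits of complex I lay on either side of the control. MT-ND1 had 71.4 CPM against 63.2, 75.1 and 82.0 CPM, and MT-ND2 77.5 CPM against 61.3, 69.5 and 76.7 CPM. MT-ND3 had 5.37 CPM against 4.95, 6.03 and 5.03 CPM, and was the lowest per kilobase (15.5 CPM per kilobase in the control).

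**Figure D3:**
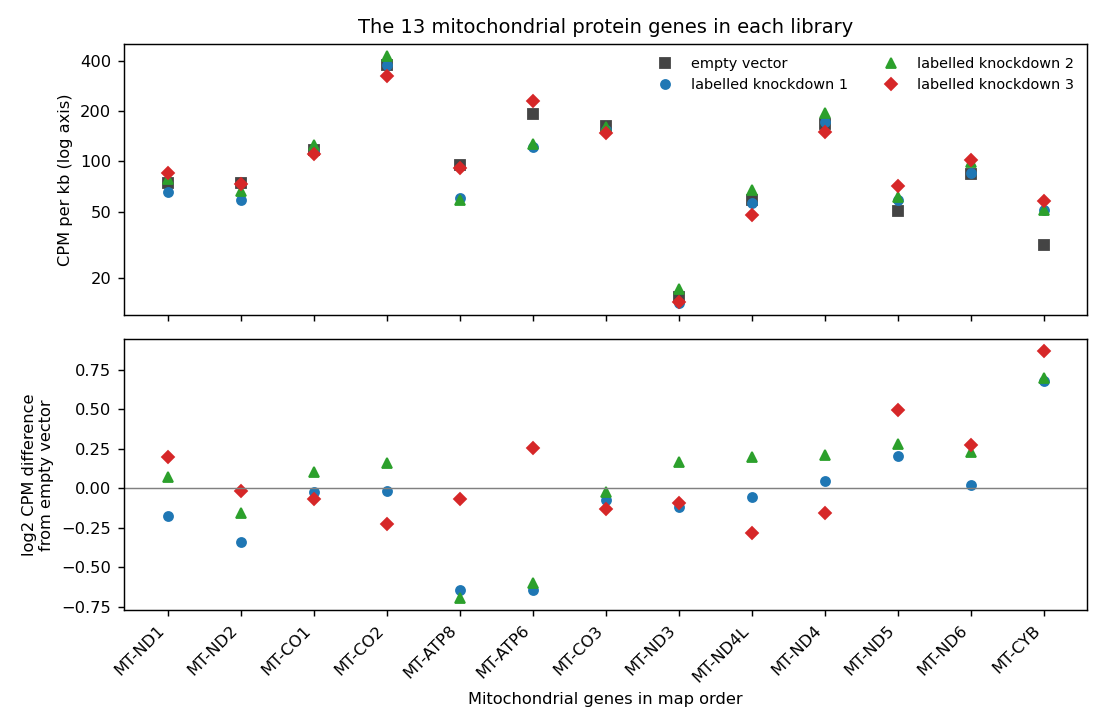
The 13 mitochondrial protein genes in map order (x axis), with the level in CPM per kilobase (upper panel, log scale) and the log2 difference from the control (lower panel) for each library. MT-ATP8 and MT-ATP6 lie below 0 in knockdown 1 and 2, and MT-ND5, MT-ND6 and MT-CYB lie above 0 in all 3 libraries labelled knockdown.

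Summed over all members, the nuclear genes had 8262 CPM in the control and 5891, 6437 and 4108 CPM in knockdown 1, 2 and 3. The mitochondrial genes had 1291 CPM against 1243, 1367 and 1316 CPM. Mitochondrial counts were 0.123% of all counts in the control and 0.123%, 0.132% and 0.144% in the others, in libraries from which ribosomal RNA had been depleted. Within the members, the mitochondrial share was 13.5% in the control (95% Clopper-Pearson interval 13.3 to 13.7) and 17.4% (17.3 to 17.6), 17.5% (17.4 to 17.7) and 24.3% (24.0 to 24.6) in the others. The intervals cover counting error only. The ratio of mitochondrial to nuclear level was 0.156 against 0.211, 0.212 and 0.320, a mean log2 difference of 0.64 with an SD of 0.35 over the 3 libraries. The ratio was higher in each library labelled knockdown, but an exact two-sided permutation test over the 4 libraries gave p = 0.5, where 0.25 is the smallest value it can give.

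**Figure D4:**
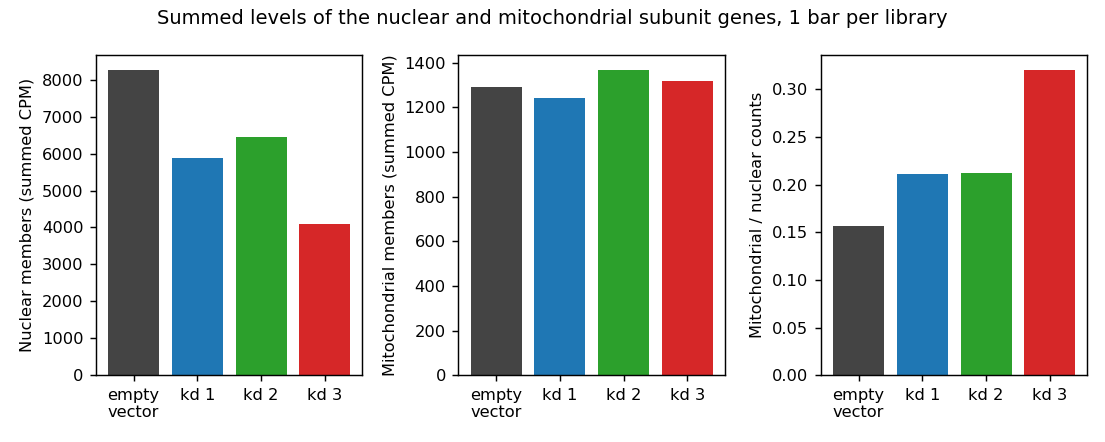
Summed level of the nuclear and of the mitochondrial members in CPM, and their ratio, in the control and the 3 libraries labelled knockdown. The nuclear sum is 8262 CPM in the control and 4108 to 6437 CPM in the others, the mitochondrial sum stays between 1243 and 1367 CPM, and the ratio lies at 0.156 in the control and between 0.211 and 0.320 in the others.

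Within complexes, the ratio of mitochondrial to nuclear level differed by a log2 value of 0.58 in complex I, 1.44 in complex III, 1.04 in complex IV and 0.22 in complex V (SD 0.30, 0.44, 0.14 and 0.90 over the 3 libraries). In complexes III and IV the control lay farther from the other libraries than any of them lay from the rest (exact two-sided permutation p = 0.25 in each, the smallest possible). The exact permutation p was 0.5 in complex I and 1 in complex V. With 4 libraries none of these ratios can pass 0.05, before or after Benjamini-Hochberg adjustment. Complex III has 1 mitochondrial gene, MT-CYB, so its ratio combines the higher MT-CYB with the lower nuclear members.

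Nuclear members are short genes, and differences between these libraries followed transcript length. Across all compared genes with a length in GENCODE 29 (15485), the 1551 shortest, with a median longest transcript of 816 bases, had a median log2 difference of -0.45, and the 1549 longest, at 9604 bases, had 0.60. Across the 75 nuclear members, Spearman's rho between length and mean difference was 0.44, and it was 0.42 over all genes; these points share the same libraries. The shorter members (37 genes) had a median of -0.79 and the longer ones (38 genes) -0.53. NDUFS1 and NDUFA9, which were higher, have longest transcripts of 11819 and 8363 bases.

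After smooth trends on length and GC content were removed over all genes, the median of the nuclear members was -0.41, where all genes had -0.06. That of the mitochondrial genes went from -0.02 to 0.36. Whether trends fitted over all genes apply to mitochondrial transcripts was not tested. MT-ND2, MT-CO3 and MT-ATP8, the 3 mitochondrial genes that were lower in all 3 libraries, then had means of 0.15, 0.22 and 0.07. Only MT-CO3 turned direction in all 3 libraries (0.17, 0.13 and 0.36 in knockdown 1, 2 and 3). MT-ND2 had -0.08, 0.004 and 0.54, and MT-ATP8 had -0.23, -0.44 and 0.90, so knockdown 3 made their means positive. Shorter and longer nuclear members then had medians of -0.40 and -0.45. The number called lower at 2-fold went from 9 to 4, with 0 higher, against 1.81% lower and 2.45% higher of all genes: ATP5MC1, ATP5MC3, UQCRFS1 and SDHC. At 1.5-fold, 16 were lower and 3 higher (7.45% and 6.66% of all genes), the latter being MT-CYB, NDUFV2 and NDUFA11. COX6B1 had a mean of -1.30 and stayed lower by 1.5-fold in each library. NDUFA9 had 0.20 and NDUFS1 -0.29, so that neither was called higher. Among complexes the medians were -0.35, -0.55, -0.39, -0.50 and -0.46 for I to V. The complex IV median was then no longer the lowest, and the c ring had -1.23.

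**Figure D5:**
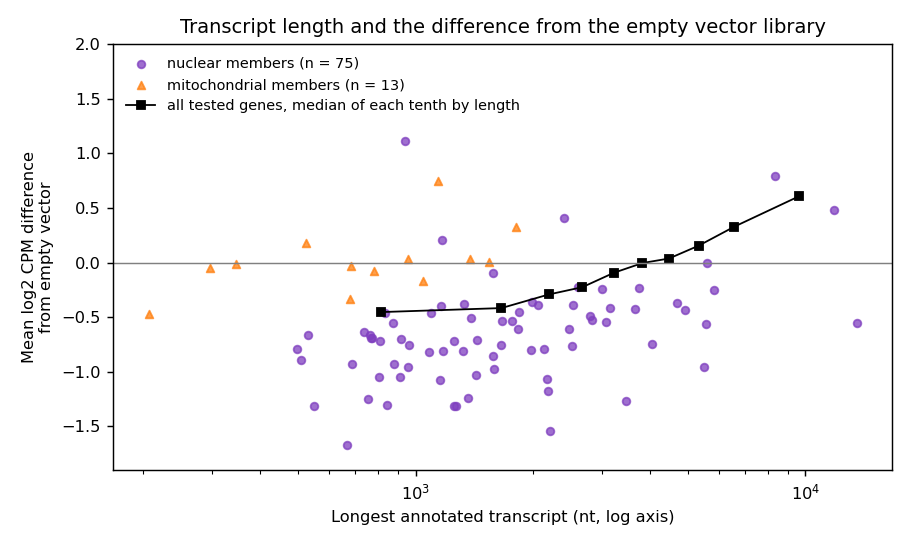
Mean log2 difference from the control (y axis) against the longest transcript in bases (x axis, log scale) for each compared member, with the median of all compared genes in 10 bins of length. Most short nuclear members lie below the medians of all genes of their length, and MT-CYB lies above them.

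Genes that serve the respiratory chain were described from 10 lists of other symbols. The mitochondrial ribosome, which makes the 13 proteins of mitochondrial DNA, had a median of -0.66 over 76 genes compared, with 8 called lower and 0 higher at 2-fold, against 2.72% and 3.65% of all genes (MRPL16, MRPL18, MRPL36, MRPS12, MRPS15, MRPS26, MRPS28 and MRPS36). MRPS15 had 143 CPM in the control and 61.8, 64.2 and 60.2 CPM in the others. With trends removed the median of this list was -0.35 and 0 were called at 2-fold. Assembly factors of complex IV had 2 of 23 called lower, COA3 and COA4, and a median of -0.31; with trends removed 0 were called. COA4 had 78.6 CPM against 26.0, 31.4 and 38.9 CPM, and like COX6B1 it encodes a twin CX9C protein of the intermembrane space.

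Assembly factors of complexes I, II, III and V had none called at 2-fold, and medians of -0.30 (17 genes), -0.79 (4), -0.33 (6) and -0.34 (5). In the list for transcription and replication of mitochondrial DNA, 2 of 15 were lower at 1.5-fold, near the 9.61% of all genes. These 2 were TFB1M and TFB2M, and the median of the list was -0.53. TFAM, which packages mitochondrial DNA, had 89.0 CPM against 82.9, 79.3 and 60.9 CPM. POLRMT, the RNA polymerase of that DNA, had 72.5 CPM against 48.9, 49.1 and 53.1 CPM. Neither TFAM nor POLRMT was called at 1.5-fold, and both are named after their values were seen. In the list for processing of mitochondrial RNA, 5 of 16 were lower at 1.5-fold, against 9.61% of all genes, and the median was -0.57. After removal of trends, 4 of 16 were lower, against 7.45% of all genes, and the median was -0.47. Subunits and partners outside the symbol pattern, such as COX4I1 and cytochrome c (CYCS), had a median of -0.53 over 7 genes. Of these, 6 were lower in all 3 libraries, against 34.2% of all genes. CYCS had 643 CPM against 426, 463 and 281 CPM.

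Nuclear regulators of respiratory genes, which have long transcripts, had a median of 0.15 over 10 genes. At 1.5-fold, 2 of the 10 were higher and 0 lower, against 10% and 9.61% of all genes. With trends removed the median turned to -0.13 and 7 of 10 were below 0. Then 0 were higher and 1 lower at 1.5-fold, against 6.66% and 7.45% of all genes. PPARGC1A had 4.58 CPM in the control and 9.35, 7.69 and 9.12 CPM in the others, and PPARGC1B had 24.6 CPM against 41.6, 42.4 and 40.5 CPM. These 2 are the ones called higher at 1.5-fold and are named after their values were seen. Their mean log2 differences went from 0.92 to 0.54 (PPARGC1A) and from 0.76 to 0.08 (PPARGC1B) with trends removed. YY1 had 95.1 CPM against 97.2, 90.7 and 98.9 CPM, and NRF1 had 14.8 CPM against 16.7, 17.0 and 17.5 CPM, so that neither reached 1.5-fold.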

How the data were processed

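RNA of 4 NT2 libraries was depleted of ribosomal RNA and made into libraries that mark the strand, per the labels' protocols. The authors deposited whole-number counts per gene, 1 table per library. STAR 2.7.11b, featureCounts 2.0.6 and DESeq2 are named in the submitters' processing notes, with builds hg38 and GRCh38; annotation release and strand setting are not given in the sources used here. From 65.2% to 68.0% of nonzero counts were even, so intervals were computed on counts divided by 2.

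Members and lists were chosen with earlier results of these data known. Counts were scaled by TMM (edgeR 4.0.16, R 4.3.3; factors 0.953, 0.990, 0.969 and 1.09) and compared as log2 CPM with a prior count of 2. Genes were compared from a mean of 1 CPM. edgeR's quasi-likelihood test and DESeq2 1.42.0 gave numbers of calls only. Trends on longest transcript and GC content (GENCODE 29) were removed by lowess with a span of 0.3. Counting intervals are 95% Clopper-Pearson. The rule and the tests were tested on simulated data. Named genes are all mitochondrial members, members called at 2-fold or 1.5-fold, the members farthest from the control in each complex, forms below the minimum, and listed genes called at 2-fold; others are named to describe a role. Settings tried were the scaling, prior count, minimum level, fold, leaving out each replicate and the trends.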

Additional observations from a re-analysis of the deposited data

How the results depend on the processing

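The number of members called lower, 9, became 4 with length and GC trends removed, 23 at 1.5-fold and 15 at 2-fold in the mean of the 3 libraries. The number called higher, 0, became 3 at 1.5-fold and 1 at 2-fold in the mean. Of all genes, 1.81% were lower at 2-fold with trends removed, and 9.61% were lower and 10% higher at 1.5-fold. The share of all genes was not computed for the mean or for leaving out a replicate. Member counts under those settings therefore cannot be set against other genes. With trends removed, the mitochondrial median went from -0.02 to 0.36 and the complex V median from -0.75 to -0.46; without a filter on low counts the latter was -0.41, where pseudogenes enter. DESeq2 in place of edgeR called 253 genes and 2 members, against 0 and 0. Leaving out each labelled knockdown replicate gave 9 to 11 members called lower and 0 higher. It gave medians of -0.83 to -0.45 for nuclear members and -0.10 to 0.04 for mitochondrial ones. The complexes ranged from -0.71 to -0.34 (I), -0.76 to -0.53 (II), -0.78 to -0.53 (III), -1.01 to -0.61 (IV) and -0.85 to -0.60 (V), and the mitochondrial to nuclear log2 ratio from 0.44 to 0.74. Every nuclear median stayed below 0 under every setting run. Of 43 named genes, 514 values under other settings held 477 within 1 SD of the spread between libraries and 37 beyond it. None of the genes called at 1.5-fold changed sign, but 18 values of 9 mitochondrial genes did, 6 of them with trends removed. Scaling by total counts moved the median of all genes to 0.07. edgeR fits without each replicate were not run. No paired analysis was possible because only the libraries labelled knockdown carry replicate numbers. With 1 control library, no setting tests the control's own spread, and members under about 100 counts in the control have wide counting intervals.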
